A study of Homo sapiens with 8 samples.

Results

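Genes that restrain the kinase complex mTORC1 were followed in nascent transcription data from HCT116, an established human colorectal carcinoma cell line. The 8 genes were DDIT4, DDIT4L, SESN1, SESN2, SESN3, TSC1, TSC2 and DEPTOR, taken by symbol from the 23193 genes that the authors counted. PRO-seq maps transcribing RNA polymerase by sequencing nascent RNA labelled in a nuclear run-on, and was performed in wild-type (WT) HCT116 cells and in an HIF1A-/- derivative. Cells of each genotype were kept in normoxia or exposed to hypoxia (1% O2) for 90 min. All 4 groups received DMSO as vehicle, and each had 2 libraries, giving 8 in all. The derivative lacks HIF1A function because part of the gene was removed by homologous recombination. All HIF1A-/- libraries came from this 1 line, so loss of HIF1A and any other difference between the lines cannot be told apart.

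mTORC1 promotes protein synthesis and cell growth when nutrients, oxygen and growth factors are plentiful. TSC1 and TSC2 form a complex that switches off RHEB, the small GTPase that activates mTORC1. DDIT4, also called REDD1, is a well-known HIF1A target gene that acts upstream of the TSC complex, and DDIT4L (REDD2) is its paralog. The sestrins SESN1, SESN2 and SESN3 bind the GATOR2 complex and so reduce the amino acid signal to mTORC1, and SESN1 and SESN2 are known p53 and ATF4 targets, respectively. DEPTOR binds mTOR itself and inhibits it.

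The authors counted reads in a TSS region of 551 bp around 1 start site per gene and in a gene body region that begins 1001 bp downstream of it. The gene body of DDIT4 is short, at 1118 bp (GRCh37, chromosome 10, 74034677 to 74035794, plus strand), and that of DEPTOR is the longest of the 8, at 176263 bp. The other bodies ran from 3629 bp in DDIT4L to 107069 bp in SESN1. No member overlapped another counted gene on the same strand. On the opposite strand, the TSS region of DDIT4L overlapped that of LOC101929353, the SESN3 regions overlapped those of LOC100129203, and the last 12 bp of the TSC2 body overlapped PKD1. The libraries are labelled as strand-specific, but whether counting used the strand was not given in the sources used here, so these 3 members carry that uncertainty.

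The start of DDIT4 is shown first because DDIT4 was the member whose transcription moved most. HIF dimers bind a core of ACGTG or GCGTG within hypoxia response elements. In the 300-base window from 250 bases before to 50 bases after the counted start, both strands of DDIT4 together held 1 ACGTG and 3 GCGTG, all in the direction of the gene, which begin at -213, -119, -47 and 32 relative to the start. Of 23190 such windows read from GRCh37, 53.0% held at least 1 of these cores, the median window held 1, and 4.92% held 4 or more. SESN2 held 1 core, at -223 on the opposite strand, and DDIT4L, SESN1, SESN3, TSC1 and TSC2 held none. DEPTOR was not searched, so whether its window holds such cores is not known here. The 250 bases before the start are given 5′ to 3′ on the strand of the gene for DDIT4 (chr10:74033426-74033675, plus strand), for its paralog DDIT4L, which has no core (chr4:101111656-101111905, minus strand), and for SESN2 (chr1:28585712-28585961, plus strand), with the cores on either strand in capitals.

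DDIT4: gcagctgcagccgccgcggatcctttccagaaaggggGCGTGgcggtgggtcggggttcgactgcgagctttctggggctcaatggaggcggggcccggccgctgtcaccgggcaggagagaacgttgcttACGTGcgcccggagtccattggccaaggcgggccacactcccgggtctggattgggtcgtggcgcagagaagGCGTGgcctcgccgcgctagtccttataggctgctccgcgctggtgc

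DDIT4L: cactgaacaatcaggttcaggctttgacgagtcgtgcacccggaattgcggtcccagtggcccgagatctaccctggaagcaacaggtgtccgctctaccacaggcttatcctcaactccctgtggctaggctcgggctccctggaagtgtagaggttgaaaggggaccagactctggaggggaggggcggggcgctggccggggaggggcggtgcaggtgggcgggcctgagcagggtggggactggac

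SESN2: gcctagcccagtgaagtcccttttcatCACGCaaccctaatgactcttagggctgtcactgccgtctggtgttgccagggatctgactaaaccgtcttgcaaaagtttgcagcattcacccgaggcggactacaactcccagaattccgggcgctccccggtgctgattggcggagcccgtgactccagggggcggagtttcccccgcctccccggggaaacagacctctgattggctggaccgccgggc

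In DDIT4, 3 of the 4 cores lie in the stretch shown. The E-box CACGTG, which contains ACGTG, was found in none of these 7 windows, and 7.93% of all windows held it. TGATGNAA, the composite site bound by ATF4 with C/EBP proteins, was found once, at -229 on the opposite strand in SESN2, and 2.96% of all windows held it. RefSeq places some starts elsewhere. In its own windows (GRCh38.p14), DDIT4 again held 4 HIF cores, SESN2 held none, and TSC2 held 1 CACGTG and 1 TGATGNAA. CACGTG reads the same on both strands and so holds an ACGTG on each, which accounts for the 2 ACGTG matches of TSC2. These are matches of letters and not measured binding sites.

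DDIT4 was transcribed in normoxia and rose in WT cells in hypoxia. Its gene body held 428 and 470 reads in the 2 WT normoxia libraries and 2660 and 4901 in the 2 WT hypoxia libraries. Scaled to each library's total in that table (CPM), these were 20.7 and 25.9 in normoxia and 140.1 and 207 in hypoxia. Both hypoxic WT libraries lay far above both normoxic ones, an order without regard to size that 19.8% of all gene bodies shared. Mean CPM went from 23.3 ± 3.71 to 174 ± 47.7 (SD, n = 2 each), and edgeR gave a 7.30-fold rise (log2 fold change 2.87, SE 0.409, Benjamini-Hochberg adjusted p = 0.0459 over 16686 gene bodies). In these bulk libraries, more transcribing cells and more transcription per cell cannot be told apart. By size this was the 15th largest rise among all gene bodies tested, and by p it ranked 42.

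DDIT4 was the only 1 of 8 members called in this comparison at a false discovery rate (FDR) of 10%, where 72 genes, or 0.431% of all tested, were called. Within each replicate number the rise was similar, with log2 ratios of 2.76 and 3.00. The call rested on few libraries. It was lost without WT normoxia replicate 1 (adjusted p = 0.668), WT normoxia replicate 2 (0.536) or WT hypoxia replicate 2 (0.369), with the log2 change between 2.58 and 3.02 in these fits. Without either WT normoxia library, 0 gene bodies of any gene were called by edgeR in this comparison, against 14 without WT hypoxia replicate 2.

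In HIF1A-/- cells, DDIT4 did not separate by oxygen. The gene body held 171 and 322 reads in normoxia and 159 and 368 in hypoxia, or 7.77 and 15.2 against 7.82 and 18.2 CPM, and the groups overlapped. The log2 change was 0.13 (SE 0.403, edgeR adjusted p = 1). None of the 8 members was called, and neither was any other gene body (0% of 16686 by edgeR, with 175 higher and 172 lower at an unadjusted p under 0.05, and with 8 called by DESeq2). The targeted gene, HIF1A, had 129 to 164 gene body CPM in WT and 141 to 172 in HIF1A-/- libraries. Since only a small stretch of it was removed, these counts do not check the genotype labels.

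**Figure D1:**
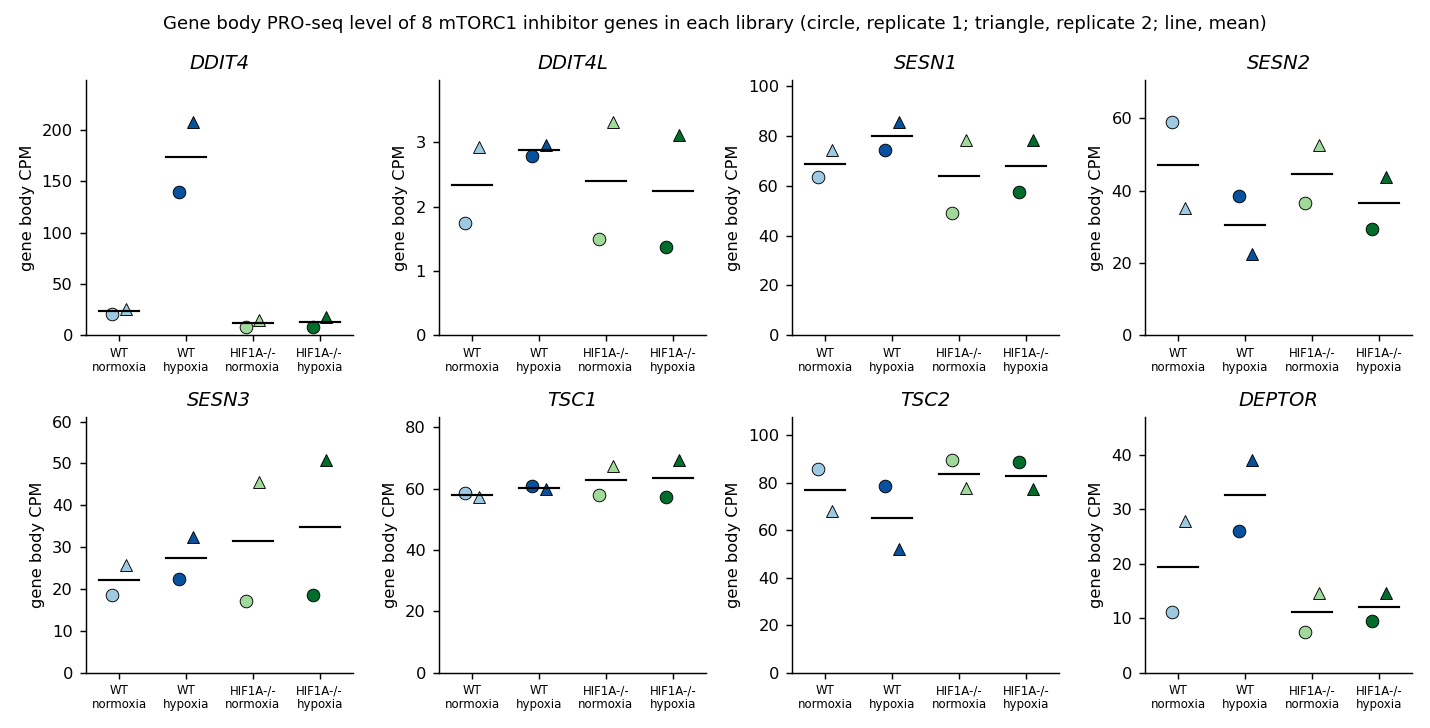
Gene body CPM (linear axis from 0) of the 8 members in each of the 8 libraries, by genotype and oxygen, with replicate 1 as a circle, replicate 2 as a triangle and the group mean as a line. DDIT4 stands at 140.1 and 207 CPM in the WT hypoxia libraries and at or below 25.9 in all others, while the other members show no such step.

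The question of whether the hypoxia response of DDIT4 differed between genotypes was addressed by the interaction term. The WT response exceeded the HIF1A-/- response by 2.73 on the log2 scale (SE 0.565, unadjusted p = 0.00132), which ranked 36 by p, but the edgeR adjusted p was 0.548. Over the alternatives the value ran from 2.23 without HIF1A-/- normoxia replicate 2 to 3.43 without HIF1A-/- hypoxia replicate 2. No member was called, against 9 genes, or 0.0539%, of all gene bodies. With the replicate number as a block the same difference was called (log2 2.73, adjusted p = 0.00521), and it was also called by DESeq2 (2.74, adjusted p = 0.000374).

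Comparing the genotypes directly, DDIT4 was lower in HIF1A-/- than in WT cells at both oxygen levels. In hypoxia the gene body level was 13.6-fold lower (log2 -3.77, SE 0.428, edgeR adjusted p = 0.00509), and both HIF1A-/- libraries lay below both WT libraries. This was the only 1 of 8 members called, where 711 genes, or 4.26% of all gene bodies, were called. The call held in all 14 alternative fits, with log2 changes from -4.45 to -3.31. In normoxia both HIF1A-/- libraries were again below both WT libraries, but the log2 difference of -1.03 (SE 0.401) was not called (adjusted p = 0.467). With the replicate block it was (log2 -1.08, adjusted p = 0.0114). Such an order, lower in both HIF1A-/- libraries, was shared by 17.0% of all gene bodies in normoxia and 22.6% in hypoxia. No member was called in normoxia, against 297 genes, or 1.78% of gene bodies.

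Near its start site, DDIT4 already carried many reads in normoxia. The TSS region (chromosome 10, 74033626 to 74034176) held 475 and 453 CPM in normoxic and 943 and 1044 CPM in hypoxic WT cells, from 1728 to 6231 reads. Both hypoxic libraries were higher, by 2.19-fold in the fit (log2 1.13, SE 0.282), yet the edgeR adjusted p was 0.922 over 15212 TSS regions, of which 7, or 0.0460%, were called and none was a member. The replicate block (log2 1.11, adjusted p = 0.000580) and DESeq2 (log2 1.12, adjusted p = 0.0436) both called it. In WT cells, 15.3% of all TSS regions were higher in both hypoxic libraries.

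In HIF1A-/- cells the DDIT4 TSS region held 199 and 392 CPM in normoxia and 218 and 385 CPM in hypoxia, with overlapping groups. The log2 change was 0.02 (SE 0.283, edgeR adjusted p = 1), and no TSS region of any gene was called (0%, with 77 higher and 58 lower at an unadjusted p under 0.05, and with 0 called by DESeq2). The genotype difference in the response was 1.10 (SE 0.399, adjusted p = 1.00), and 1 gene, or 0.00657%, was called there, no member among them. The TSS region was lower in HIF1A-/- than in WT hypoxia by 3.33-fold (log2 -1.74, SE 0.288, adjusted p = 0.0156), the only 1 of 7 tested members called against 168 genes, or 1.10%, of all. That call was lost without WT hypoxia replicate 2 (adjusted p = 0.205) or HIF1A-/- hypoxia replicate 1 (0.155). In normoxia the difference was -0.63 (SE 0.283, adjusted p = 0.615), where 0.657% of TSS regions but no member were called. The block gave -0.71 (adjusted p = 0.0198).

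**Figure D2:**
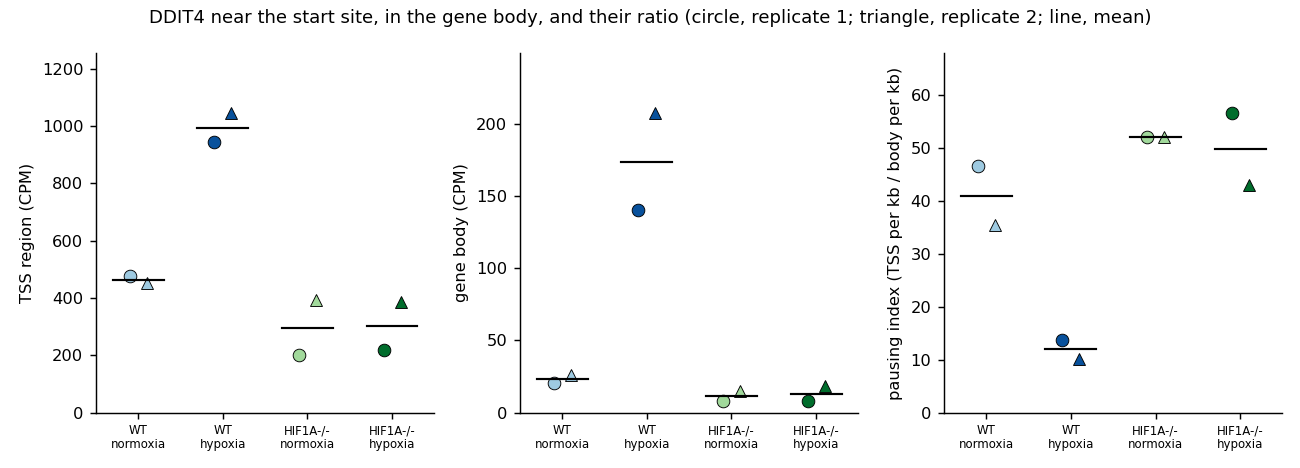
DDIT4 in each library: CPM in the TSS region, CPM in the gene body, and the pausing index, the ratio of the per-kb read densities of both regions (linear axes from 0, circles replicate 1, triangles replicate 2, lines group means). In WT hypoxia the TSS region is at 943 and 1044 CPM, the gene body at 140.1 and 207 CPM and the pausing index at 13.7 and 10.2, apart from the other 3 groups in each panel.

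The gene body of DDIT4 rose more than its TSS region, which lowered its pausing index. This index divides the read density per kb of the TSS region by that of the gene body, and a high value means that polymerase is concentrated near the start. For DDIT4 it fell from 46.6 and 35.5 in the normoxic WT libraries to 13.7 and 10.2 in the hypoxic ones, with no overlap. The fit of both regions gave a 3.30-fold drop (log2 -1.72, SE 0.243, edgeR adjusted p = 0.00311), the only 1 of 7 members called, where 28 genes, or 0.193% of the 14494 tested, were called. The call was lost without WT normoxia replicate 1 (adjusted p = 0.122) or WT hypoxia replicate 2 (0.112). HIF1A-/- cells had an index of 52.0 and 52.2 in normoxia against 56.6 and 43.0 in hypoxia, and the log2 change was -0.05 (SE 0.255). No gene was called there (0%, edgeR, with 108 higher and 121 lower at an unadjusted p under 0.05; no other tool was run on the index).

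The genotype difference in the change of the pausing index was -1.67 (SE 0.352, unadjusted p = 0.000205, edgeR adjusted p = 0.288), with 3 genes, or 0.0207%, called and no member among them. The replicate block called it (log2 -1.66, adjusted p = 0.0116). Between the genotypes in normoxia the index of DDIT4 differed by 0.38 (SE 0.251, adjusted p = 0.844), and 0.0759% of genes but no member were called.

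The paralog DDIT4L had few reads in its gene body of 3629 bp. That body held 28 to 70 reads per library, or 1.38 to 3.31 CPM, against 159 to 4901 reads for DDIT4. Per kb in WT normoxia, DDIT4L stood at 0.643 RPKM, beside 20.8 for DDIT4 and 0.644 for SESN1. In WT cells DDIT4L went from 1.74 and 2.92 CPM in normoxia to 2.79 and 2.96 in hypoxia, with overlapping libraries. The log2 change was 0.28 (SE 0.506), and in HIF1A-/- cells it was -0.14 (SE 0.509), neither called. The TSS region of DDIT4L was better filled, at 97 to 587 reads, and its pausing index ran from 153 to 251. Differences within these SEs were not detectable.

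Among the sestrins, none was called in any comparison. SESN1, whose body held 1079 to 2020 reads, went from 63.6 and 74.3 CPM in WT normoxia to 74.4 and 85.5 in WT hypoxia, so that the hypoxic libraries lay just above the normoxic ones (log2 0.18, SE 0.212, edgeR adjusted p = 0.897). In this comparison 19.8% of all gene bodies were higher in both hypoxic libraries. For SESN2 the WT libraries held 58.9 and 35.2 CPM before and 38.5 and 22.4 CPM during hypoxia. The SESN2 groups overlapped, and its log2 change of -0.66 (SE 0.349, adjusted p = 0.897) was the most negative among the 8 members.

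Within each replicate number SESN2 was lower in hypoxia, with log2 ratios of -0.61 and -0.65 in WT and -0.32 and -0.27 in HIF1A-/- cells. How many of all gene bodies kept 1 direction in both replicate numbers was not counted. The replicate block did not call SESN2 in either genotype. Its TSS region stayed close, at 306 and 260 CPM in WT normoxia and 291 and 219 in WT hypoxia (log2 -0.13, SE 0.176). SESN2 carried a high pausing index in all libraries, 208 to 392, and the change in WT hypoxia was 0.53 (SE 0.241, adjusted p = 0.872).

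SESN1 differed between its 2 regions in the genotype comparison. In normoxia its TSS region was at 20.7 and 21.5 CPM in WT and 38.8 and 28.0 CPM in HIF1A-/- libraries, without overlap (log2 0.67, SE 0.306, adjusted p = 0.620), while its gene body difference was -0.12 (SE 0.212). Of all TSS regions, 16.4% were higher in both HIF1A-/- libraries in normoxia. The corresponding difference in pausing index was 0.79 (SE 0.308, adjusted p = 0.759). Only leaving out HIF1A-/- normoxia replicate 2 gave a call for this index (log2 1.32, adjusted p = 0.0829).

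SESN3 had gene body reads but none at its counted start. Its body held 377 to 1032 reads, and its TSS region (chromosome 11, 94965205 to 94965755, minus strand) held 0 in all 8 libraries, so neither that region nor a pausing index could be tested. Of the 16686 gene bodies tested, 1126 (6.75%) had a TSS region at 0 in all libraries, and of the 8175 bodies with at least the mean CPM of SESN3, 135 did. In the body, SESN3 had 18.6 and 25.8 CPM in normoxic and 22.3 and 32.3 CPM in hypoxic WT cells (log2 0.27, SE 0.513). The replicates of HIF1A-/- cells were far apart, at 17.1 and 45.6 CPM in normoxia and 18.6 and 50.9 in hypoxia. Within each replicate number SESN3 was higher in hypoxia, with log2 ratios of 0.26 and 0.33 in WT and 0.12 and 0.16 in HIF1A-/- cells. Neither edgeR nor the replicate block called it, and the share of all gene bodies with such a shared direction was not counted.

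TSC1, the stabilising subunit of the TSC complex, was the steadiest member. Its gene body ran from 57.2 to 69.4 CPM over the 8 libraries, and the log2 change in hypoxia was 0.03 (SE 0.130) in WT and -0.02 (SE 0.130) in HIF1A-/- cells. TSC2, the subunit with GTPase-activating function, had 85.6 and 67.9 CPM in normoxic and 78.4 and 51.9 CPM in hypoxic WT cells, with overlap (log2 -0.27, SE 0.241, edgeR adjusted p = 0.897). In its TSS region the WT libraries did separate, from 83.2 and 78.9 to 65.2 and 50.4 CPM (log2 -0.46, SE 0.188, unadjusted p = 0.0298), but the adjusted p was 0.922. Of all TSS regions tested in this comparison, 19.5% were likewise lower in both hypoxic libraries and 15.3% were higher in both. The TSC2 gene body was 0.34 higher on the log2 scale in HIF1A-/- than in WT hypoxia (SE 0.241, adjusted p = 0.548), and the replicate block called this (log2 0.36, adjusted p = 0.0469).

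DEPTOR came closest to the pattern of DDIT4 among the other members, but no genotype difference in its hypoxia response was called. In WT cells its gene body held 11.2 and 27.8 CPM in normoxia against 26.0 and 39.1 in hypoxia. The HIF1A-/- libraries held 7.50 and 14.7 CPM in normoxia against 9.49 and 14.6 in hypoxia. In WT cells the groups overlapped (log2 0.72, SE 0.448, adjusted p = 0.897). In hypoxia both HIF1A-/- libraries were below both WT libraries, a 2.73-fold difference (log2 -1.45, SE 0.457, unadjusted p = 0.0133) that was not called (adjusted p = 0.180). Of all gene bodies, 22.6% were lower in both HIF1A-/- libraries in hypoxia. In normoxia the log2 difference between the genotypes was -0.82 (SE 0.456, edgeR adjusted p = 0.727). The genotype difference in the response was 0.63 in the gene body (SE 0.640, edgeR unadjusted p = 0.354). In the TSS region it was 0.23 (SE 0.589, edgeR unadjusted p = 0.699).

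The calls of DEPTOR depended on the fit. With the replicate block, its gene body was called in WT hypoxia (log2 0.80, adjusted p = 0.0764) and between the genotypes in normoxia (-0.77, adjusted p = 0.0557) and in hypoxia (-1.45, adjusted p = 0.00222). DESeq2 called it in the genotype comparison in hypoxia (log2 -1.44, adjusted p = 0.0245), as did edgeR on the 4 hypoxia libraries alone (-1.43, adjusted p = 0.0394). Its TSS region showed the same order, with 28.0 and 52.2 CPM in normoxic and 51.9 and 63.9 in hypoxic WT cells. HIF1A-/- cells had 11.5 and 28.0 CPM in that region in normoxia, against 17.3 and 33.2 in hypoxia. For the difference between the genotypes in hypoxia, the TSS log2 value was -1.20 (SE 0.412, adjusted p = 0.250), and the block called it (-1.28, adjusted p = 0.000641), as it did in normoxia (-1.01, adjusted p = 0.0174). DEPTOR also had the highest pausing index among the members, 490 to 801, where the median over 14456 genes was 44.4 to 49.1 per library.

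**Figure D3:**
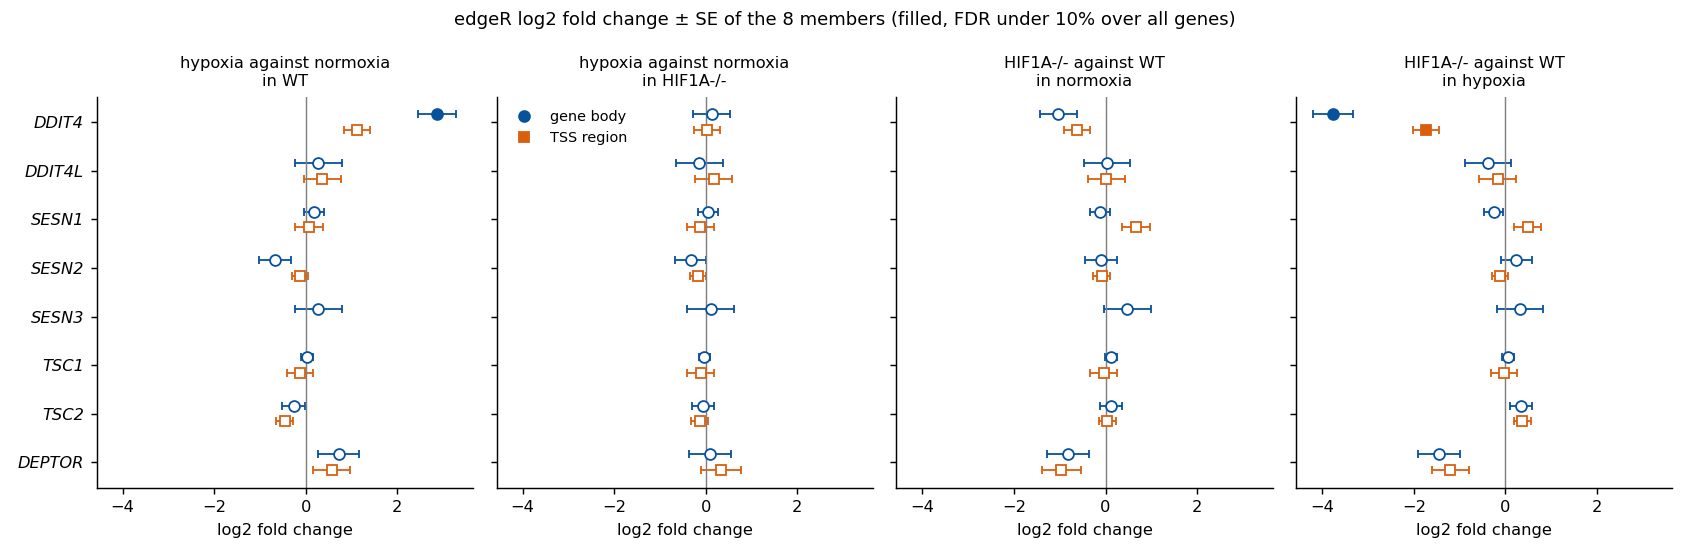
Log2 fold change with its SE (edgeR) for each member in 4 comparisons, gene body as blue circles and TSS region as orange squares, filled where the FDR over all genes was under 10%. DDIT4 alone has filled symbols, in WT hypoxia (2.87, gene body) and in HIF1A-/- against WT in hypoxia (-3.77 and -1.74), and SESN3 has no TSS value.

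Over all 8 members, the median gene body log2 change in WT hypoxia was 0.23, with 6 of 8 above 0, and the median over all genes tested was -0.02. The 7 members other than DDIT4 ran from -0.66 to 0.72 in WT and from -0.33 to 0.11 in HIF1A-/- cells. In HIF1A-/- against WT hypoxia the median of the 8 was -0.10, with 4 above 0, beside 0.00 over all genes.

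Per kb of gene body (RPKM), DDIT4 was the most densely transcribed member in all groups, at 20.8 RPKM in WT normoxia and 155 in WT hypoxia, the 98.7th and 99.97th percentile of the genes tested. Even in HIF1A-/- normoxia its 10.3 RPKM stood at the 95.9th percentile. SESN2 (2.13) and TSC2 (1.94) followed in WT normoxia and overlapped each other, then TSC1 (1.11). SESN1 and DDIT4L, at 0.644 and 0.643, could not be ordered, and SESN3 (0.336) and DEPTOR (0.110) were lowest.

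At the TSS region, where all members have the same length, the order in WT normoxia was DDIT4 (464 CPM), SESN2 (283), TSC2 (81.1), DDIT4L (68.8), DEPTOR (40.1), TSC1 (25.8) and SESN1 (21.1). Of these neighbours, the libraries of TSC2 and DDIT4L overlapped and no others did. In WT normoxia DEPTOR was lowest per kb of gene body but stood above TSC1 and SESN1 at the start. HIF1A-/- normoxia differed, with means at the start of 19.7 CPM for DEPTOR, 24.8 for TSC1 and 33.4 for SESN1. There the DEPTOR libraries, at 11.5 and 28.0 CPM, spanned those of TSC1.

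The wider mTORC1 pathway was described by 102 other genes in 9 lists, of which 96 passed the filter in the gene body. In WT hypoxia 1 of 96 was called, BNIP3, a mitophagy receptor that also binds RHEB. Its WT libraries held 15.6 and 12.2 CPM in normoxia against 85.7 and 95.3 in hypoxia (log2 2.66, SE 0.230, adjusted p = 0.00633). BNIP3 was also the only list gene called in the genotype difference of the response (2.81, SE 0.317, adjusted p = 0.0616). The first call was lost without either WT normoxia library, and the second without any 1 of the WT or the HIF1A-/- hypoxia libraries. The median log2 change of the 96 genes in WT hypoxia was -0.04, with 40 above 0. In HIF1A-/- hypoxia none was called, with 2 higher and 3 lower at an unadjusted p under 0.05 by edgeR and none called by DESeq2.

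By list, no gene body of the mTOR complexes (9 tested), of GATOR1, GATOR2 and KICSTOR (12), or of the AKT branch (12) was called in any of the 5 comparisons. Of the AMPK and LKB1 list, 1 of 9 was called, PRKAA2, a catalytic AMPK subunit. It was higher in HIF1A-/- than in WT hypoxia, at 23.8 ± 4.65 against 10.1 ± 2.77 CPM (SD, n = 2 each; edgeR log2 1.23, SE 0.263, adjusted p = 0.0585). Its level in normoxia was in the same order, at 22.2 ± 6.79 against 9.50 ± 1.00 CPM (edgeR log2 1.21, adjusted p = 0.102). That difference was called by DESeq2 (1.23, adjusted p = 0.00235) and with the replicate block (1.19, adjusted p = 0.00257).

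Among the mTORC1 substrates and effectors (17 tested), 2 were called, both lower in HIF1A-/- cells at both oxygen levels. Over all gene bodies, 1.78% were called in normoxia and 4.26% in hypoxia. By sign alone, 8 of the 17 were higher in HIF1A-/- than in WT cells at each oxygen level. EIF4EBP1, a translation repressor that mTORC1 phosphorylates, was at 38.9 and 42.5 CPM in HIF1A-/- and 77.4 and 70.8 CPM in WT normoxia (log2 -0.87, SE 0.147, adjusted p = 0.0379), and its difference in hypoxia was -0.78 (SE 0.147, adjusted p = 0.0368). GRB10, an adaptor stabilised by mTORC1, fell by 0.66 (SE 0.140, adjusted p = 0.0930) in normoxia and by 0.64 (SE 0.141, adjusted p = 0.0649) in hypoxia. For hypoxia within a genotype, edgeR called neither. GRB10 was lower in both hypoxic libraries of each genotype, and the replicate block called it in WT cells (log2 -0.43, adjusted p = 0.0622). Among all gene bodies, 17.3% were lower in both hypoxic libraries in WT and 9.15% in HIF1A-/- cells. The block called 919 gene bodies in WT hypoxia.

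The remaining calls in HIF1A-/- against WT hypoxia were FNIP2, a folliculin partner (log2 -0.87, SE 0.195, adjusted p = 0.0677), and among the transcription factors known to act on DDIT4 or sestrins NR3C1, the glucocorticoid receptor (-0.54, SE 0.124, adjusted p = 0.0738). FOXO3, from the same list, was also called (-0.59, SE 0.138, adjusted p = 0.0785). It is outside the naming rule and was named after its values were seen. With the replicate block, FOXO3 was also called in WT hypoxia (0.74, adjusted p = 0.00693). With BNIP3 (-2.82, SE 0.232, adjusted p = 0.00131), 6 list genes were lower and 1 was higher, 7 of 96 in all, beside 711 of 16686 gene bodies (4.26%). Of the 96 list genes, the replicate block called 8 in WT hypoxia, 12 in HIF1A-/- against WT in normoxia and 33 in hypoxia. Over all 16686 gene bodies it called 919, 1722 and 4706 in the same comparisons.

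**Figure D4:**
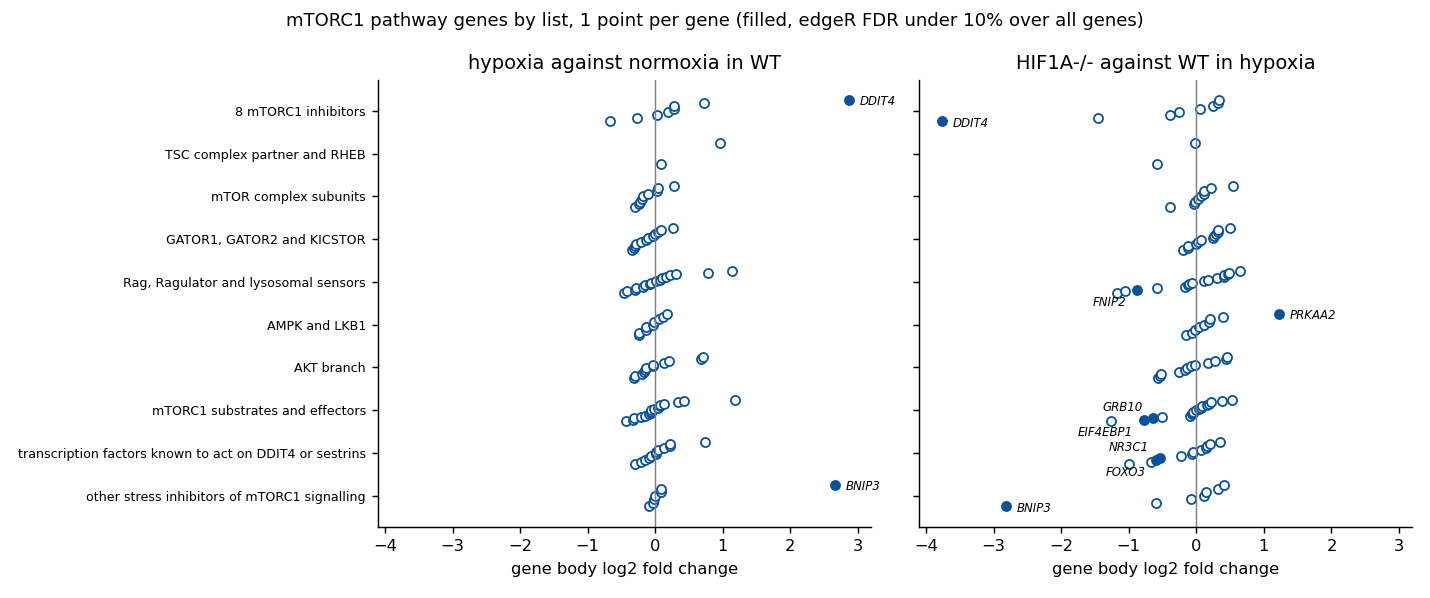
Gene body log2 fold change of the 8 members and of 96 other mTORC1 pathway genes by list, 1 point per gene, in WT hypoxia against normoxia and in HIF1A-/- against WT in hypoxia, filled where the FDR over all genes was under 10%. DDIT4 and BNIP3 are the filled points in the left panel, at 2.87 and 2.66, and lie lowest in the right panel, at -3.77 and -2.82.

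The genes whose gene body level followed DDIT4 most closely over the 8 libraries were ranked by Pearson correlation of log2 CPM among 16678 genes. The 10 highest were ZNF292 (r = 0.988), PLOD2 (0.986), SAP30 (0.985), INSIG2 (0.984), ARRDC3 (0.984), C4orf47 (0.982), MIF-AS1 (0.981), ARFGEF3 (0.979), LOC101929705 (0.979) and PTGES3L-AARSD1 (0.978). The points share their libraries and scaling, and a pattern shared with DDIT4 follows from the ranking itself. PLOD2, a collagen lysyl hydroxylase, went from a mean of 30.9 ± 4.83 to 113 ± 10.8 CPM in WT cells (SD, n = 2 each), and INSIG2, a regulator of sterol synthesis, from 18.5 ± 1.37 to 91.3 ± 36.6 CPM. Their means in HIF1A-/- cells were 23.9 and 28.1 CPM for PLOD2 and 14.3 and 14.8 CPM for INSIG2, in normoxia and hypoxia.

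Not every close follower was called in WT hypoxia. Of the 10, ZNF292 (log2 1.35, adjusted p = 0.0248), PLOD2 (1.84, adjusted p = 0.0459), SAP30 (1.78, adjusted p = 0.0519), INSIG2 (2.27, adjusted p = 0.0314) and C4orf47 (2.67, adjusted p = 0.0979) were, by edgeR. Among the members, the level of DEPTOR followed DDIT4 most (r = 0.884) and that of TSC2 ran opposite (r = -0.73). DDIT4L and SESN1 followed each other (r = 0.902). In each of the 4 groups the replicate 2 library was the higher one for DDIT4, DDIT4L, SESN1, SESN3 and DEPTOR alike, and this order enters all of these correlations.

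The libraries held 18125234 to 23622392 gene body reads and 2783581 to 5966348 TSS reads, the lowest TSS totals being those of HIF1A-/- replicate 1. The epithelial markers EPCAM, CDH1, KRT8, KRT18 and KRT19 and the intestinal marker CDX2 were transcribed in all libraries, while CDX1, VIL1 and CEACAM5 had at most 15 reads. Markers of blood, endothelium, neuron and liver had at most 65 reads, and of the fibroblast markers COL1A2 had at most 2, PDGFRB at most 133 and COL1A1 417 to 1188. DDIT4 had 159 reads or more in every library.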

How the data were processed

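PRO-seq was performed by the authors in 8 HCT116 libraries, 2 per group, described in their methods as biological replicates. Reads were aligned by the authors to GRCh37 (hg19) with HISAT2 (version 2.1.0), and the deposited values are raw counts per gene from featureCounts (Subread version 1.6.2), 1 TSS region and 1 gene body for each of 23193 genes. Whether strand was used in counting was not given in the sources used here. Here, regions over 0.5 CPM in at least 2 libraries were tested with edgeR (version 4.0.16, R version 4.3.3) quasi-likelihood tests after TMM scaling, in 1 fit of 4 group means over 8 libraries. P-values were adjusted by Benjamini-Hochberg over all regions tested and called at an FDR of 10%. The pausing index was tested on both counts together, with a term per library. CPM and RPKM used column totals without TMM, and pairwise ratios had 0.5 reads added. Scripts were tested on simulated data that held no replicate effect.

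The members and the gene lists were chosen with earlier results of these data known. All members were named, with list genes called in a gene body comparison (at most 6, by smallest p) and the 10 genes most correlated with DDIT4 (log2 CPM, prior count 2). The replicate number was taken to pair libraries, because deviations from the group means correlated between same-numbered libraries in all 6 pairs of groups (0.493 to 0.844 in gene bodies, 0.217 to 0.522 in TSS regions). The main fit had no block, since the study's methods name none, and blocked values are given where the call of a member changed and, for the other list genes, mostly as counts. DESeq2 (version 1.42.0), no TMM, other filters, the 4 libraries compared alone and leaving out each library were the other alternatives. Promoter letters were read from GRCh37, and those of RefSeq from GRCh38.p14. DEPTOR was left out of the motif search.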

Additional observations from a re-analysis of the deposited data

Results flagged for a closer look

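BNIP3 drew attention because its response to hypoxia differed between the genotypes in a test of the difference itself. The gene body response was larger in WT than in HIF1A-/- cells by 2.81 on the log2 scale (SE 0.317, edgeR adjusted p = 0.0616), and its WT mean rose from 13.9 to 90.5 CPM while the HIF1A-/- mean was 13.8 CPM before hypoxia and 12.9 CPM during it.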

How the results depend on the processing

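With 2 libraries per group, the calls of DDIT4 depended more on the fit than the direction of its changes did. No member's called change turned direction. The sign of an uncalled change turned in 5 of 178 alternative values for DDIT4 and in 100 of 1137 for the other 7 members. Among the 7 members other than DDIT4, 1122 of 1137 alternative values kept their side of the threshold and 15 became calls, 13 of them DEPTOR. For DDIT4, 157 of 178 kept it, 7 lost a call and 14 gained 1.

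In gene bodies, the paired analysis with the replicate block raised the members called from 1 to 2 in WT hypoxia, from 0 to 1 for the genotype difference in the response (DDIT4 2.73), from 0 to 2 in HIF1A-/- against WT normoxia (DDIT4 -1.08) and from 1 to 3 in hypoxia. In TSS regions it raised them from 0 to 1 (DDIT4 1.11), from 0 to 2 in normoxia between genotypes (DDIT4 -0.71) and from 1 to 2 in hypoxia, and for the genotype difference in the pausing index from 0 to 1 (DDIT4 -1.66). Over all genes the block called 919 gene bodies in place of 72 in WT hypoxia, 64 in place of 9 for the genotype difference, 1722 in place of 297 in normoxia and 4706 in place of 711 in hypoxia. In TSS regions it called 153 in place of 7, 7 in place of 1, 652 in place of 100 and 2196 in place of 168. For the pausing index it called 70 in place of 28, 21 in place of 3 and 99 in place of 11. The block changed no other call of a member.

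DESeq2 called 1 member for the genotype difference in gene bodies (DDIT4 2.74), 2 in HIF1A-/- against WT hypoxia and 1 in TSS regions in WT hypoxia (DDIT4 1.12). Over all gene bodies it called 175, 68, 630 and 1311 in the same 4 comparisons and 8 in HIF1A-/- hypoxia, and in TSS regions 15, 3, 137 and 312. Without a filter on low counts, members called in TSS regions were 1 in WT hypoxia (DDIT4 1.13), 1 for the genotype difference (1.10), 2 in normoxia (-0.63) and 2 in hypoxia, of 63, 8, 406 and 1063 genes in all, and 17 gene bodies were called for the genotype difference. With only the 4 libraries compared, 2 members were called in HIF1A-/- against WT hypoxia in each region, and 1 in TSS regions in WT hypoxia (DDIT4 1.14), while TSS calls over all genes were 52 in normoxia and 853 in hypoxia. Requiring 0.5 CPM in all 8 libraries left 6 gene bodies for the genotype difference and 35 and 114 TSS regions between genotypes in normoxia and hypoxia. Without TMM, 6 gene bodies were called for the genotype difference and 2 genes for the pausing index in normoxia.

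Other pathway genes called in WT hypoxia, 1 in the main setting, were 3 by DESeq2, 2 without a filter and 8 with the block. In HIF1A-/- against WT normoxia, 2 became 4 by DESeq2, 12 with the block and 1 without TMM, with the filter on all 8 libraries or with only 4 libraries. In hypoxia, 7 became 12 by DESeq2, 3 without TMM and 33 with the block. Over all gene bodies, the counts in WT hypoxia were 72, 175, 95 and 919 in the same order of settings. In normoxia, 297 became 630, 1722, 274, 207 and 245, and in hypoxia 711 became 1311, 649 and 4706.

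Leaving out 1 library at a time moved the genotype difference of DDIT4 in the gene body between 2.23 and 3.43, in the TSS region between 0.54 and 1.57 and in the pausing index between -1.85 and -1.49. In WT hypoxia DDIT4 ran from 2.58 to 3.12 in the gene body, from 1.04 to 1.22 in the TSS region and from -1.91 to -1.55 for the pausing index. In HIF1A-/- hypoxia DDIT4 ran from -0.54 to 0.65 in the gene body and from -0.45 to 0.59 in the TSS region. Between genotypes, 0 to 2 members were called in TSS regions in normoxia (DDIT4 -1.19 to -0.24) and 0 to 2 in hypoxia (-2.22 to -1.39), and 0 to 1 for the pausing index in normoxia. Other pathway genes called ran from 0 to 1 in WT hypoxia, for the genotype difference and in normoxia, and from 1 to 10 in hypoxia. The cause of these changes was not tested. The fewest reads behind a tested value were the 28 to 70 gene body reads of DDIT4L, and why the TSS region of SESN3 held 0 was not tested.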
